A study of Homo sapiens with 24 samples.

Results

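The genes described here are 35 chaperones of the endoplasmic reticulum (ER) and the cytosol together with the genes that sense and answer protein misfolding, chosen by name from the 22026 genes of the mRNA table. All 35 were in the table, 23 of them acting in or at the ER and 12 in the cytosol, mitochondria or nucleus. They were measured in A549, an epithelial cell line established from a human lung adenocarcinoma, kept in CAF conditioned medium or in control medium and collected at 3, 6, 12, 24, 48 and 72 h. CAF is not spelled out in the labels and usually stands for cancer-associated fibroblast in this field. The cells that conditioned the medium, the composition of the control medium and the state of the culture at the start are not stated by the labels, and the model is 1 cell line in conditioned medium. There was 1 mRNA library for each medium and time, that is 6 in CAF medium and 6 in control medium. According to the design text each sample had 2 biological replicates, but the table has 1 column for each medium and time. A single time therefore has no replicate check, and p-values rest on the spread between the times, which may be technical in part.

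Proteins that enter the ER fold with the help of the Hsp70 protein BiP, the Hsp90 protein GRP94, the lectin chaperones calnexin and calreticulin and the disulfide isomerases. When unfolded proteins build up, the sensors IRE1, PERK and ATF6 start the unfolded protein response, in which the cleaved form of ATF6 and the spliced form of XBP1 raise the transcription of chaperone and degradation genes. In the cytosol the same task falls to Hsp70, Hsp90 and their J-protein partners, whose genes are driven by heat shock factor 1 (HSF1), and secretory epithelial and carcinoma cells are known for high levels of both systems.

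Some genes of the 2 systems carry different short motifs near their starts. Promoters of 33 of the 35 genes were matched by symbol in RefSeq (GRCh38.p14), each covering 250 bases before to 50 after the start of transcription, and were searched on both strands. The ER stress response element ERSE, read as CCAAT and CCACG with 9 bases between them and bound by NF-Y and ATF6 or XBP1, was present for 7 of the 22 matched ER genes and 0 of the 11 matched others, against 0.0916% of the 27305 genes in the table. The matches are shown because, among the members, only ER genes carried them. Fixed letters are in capitals and the spacer in lower case, read along the motif:
HSPA5: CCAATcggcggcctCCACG
HSP90B1: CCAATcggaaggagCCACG
HSP90B1: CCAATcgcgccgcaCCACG
CALR: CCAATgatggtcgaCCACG
CANX: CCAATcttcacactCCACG
PDIA6: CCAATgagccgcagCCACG
XBP1: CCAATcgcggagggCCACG
CRELD2: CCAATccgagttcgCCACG

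The heat shock element with 3 units, GAA, TTC and GAA with 2 bases between neighbours, which HSF1 binds, had the reverse distribution, with 5 of the 11 matched cytosolic and mitochondrial genes and 0 of the 22 ER genes, against 0.608% of all genes. These matches are shown in the same way, with the units in capitals, and the DNAJA1 match lies after the start of transcription:
HSPA8: GAAagTTCcaGAA
HSPA8: GAAccTTCcaGAA
HSP90AA1: GAAccTTCcgGAA
HSP90AB1: GAAtcTTCcaGAA
HSP90AB1: GAAgcTTCcaGAA
HSPD1: GAActTTCcaGAA
HSPD1: GAAagTTCtgGAA
DNAJA1: GAActTTCcaGAA

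The shorter form with ATTGG and CCACG 1 base apart (ERSE-II) was found before SDF2L1, HYOU1 and HERPUD1, against 0.0696% of all genes, and TGACGTGG, the core of the unfolded protein response element, before HYOU1 (0.927% of all genes). The 2-unit heat shock element GAANNTTC, which overlaps the longer one, was found for 7 of the 11 and for CANX among the 22 (8.21% of all genes), and the cyclic AMP response element TGACGTCA for HSP90AB1 alone (2.25%). HSPD1 and HSPE1 lie head to head on opposite strands with a start-to-start distance of 105 or 539 bases, depending on the HSPD1 start. A match describes letters in this window and is not a measured site. ER stress and heat shock elements are named for these responses, so their counts in these genes are a description and not a test.

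HSPA8 was the only one of the 35 genes past the test between the media over 3 to 12 h. HSP90AA1, HSP90AB1, HSPD1 and DNAJA1, which also have 3-unit heat shock elements, were not called there. A link between element and change was not tested. HSPA8 carries 2 such 3-unit elements, in capitals, within the 250 bases before its start (chr11:123062137-123062386, GRCh38.p14, minus strand):
HSPA8: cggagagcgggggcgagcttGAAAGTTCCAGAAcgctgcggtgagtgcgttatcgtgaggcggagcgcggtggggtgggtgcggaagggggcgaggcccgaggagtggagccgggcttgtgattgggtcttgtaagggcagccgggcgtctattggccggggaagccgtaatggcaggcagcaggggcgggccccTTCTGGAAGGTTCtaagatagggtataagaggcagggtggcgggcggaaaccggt
HSPA5, the BiP gene, is shown as its ER counterpart, with the ERSE in capitals 66 to 48 bases before the start (chr9:125241344-125241593, GRCh38.p14, minus strand):
HSPA5: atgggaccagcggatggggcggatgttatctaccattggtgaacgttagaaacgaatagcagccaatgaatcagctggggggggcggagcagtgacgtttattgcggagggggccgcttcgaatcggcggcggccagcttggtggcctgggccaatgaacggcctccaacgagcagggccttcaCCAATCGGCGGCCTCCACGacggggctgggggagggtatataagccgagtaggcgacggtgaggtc

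Levels are given in RPKM, the reads of a gene scaled to the length of its model and to the mapped reads of the library, as the authors deposited them. The smallest steps between values of short gene models gave 26.6 to 40.6 M reads in the CAF medium libraries and 24.0 to 40.1 M in the control libraries. The lowest value of a member, ERN1 in CAF medium at 12 h, rests on 268 reads (95% exact Poisson interval 88.4 to 113% of that number, counting error only). Of the 6 epithelial markers 6 reached 1 RPKM, with summed levels of 3299 to 5530 RPKM in CAF medium and 4280 to 5043 in control medium. KRT8, KRT7 and KRT18 made up most of these sums, which hide differences of single markers. In limma 1 of the 6 was called higher in CAF medium in the early window (3 to 12 h) and 2 in the late window (24 to 72 h). The fit to all times called 1 higher, with 4 changes positive and 2 negative, and 0 were called lower in these fits. EPCAM was higher in CAF medium at each time (0.66 to 6.46 RPKM against 0.24 to 3.3). The 10 fibroblast markers summed to 8.67 to 12.0 RPKM in CAF medium and 4.89 to 11.7 in control medium. Of these, COL1A1, LUM, FAP, PDGFRA and THY1 reached 1 RPKM in CAF medium and the same without PDGFRA in control medium. Of the 10 fibroblast markers 2 averaged 1 RPKM or more and were tested. COL1A1 was called higher in CAF medium over 3 to 12 h (5.81, 4.02 and 4.84 RPKM against 1.91, 1.37 and 2.89 in control medium, log2 1.11 ± 0.23, limma adjusted p = 0.0259). The other was at log2 -0.04 in that window. COL1A1 was lower in CAF medium at 48 and 72 h (3.65 and 2.60 RPKM against 4.18 and 4.27). Over 24 to 72 h and over the 6 times 0 of the 2 were called. The part of these markers in the results below was not tested. The 3 endothelial markers summed to at most 0.13 RPKM, and of the 4 leukocyte markers CD68 and CD14 reached 1 RPKM.

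Some libraries stood apart. The CAF medium library of 24 h and the control library of 48 h were nearer to each other (SD of log2 differences over the 12029 tested genes 0.21) than to their partners of the same time (0.44 and 0.50). The CAF medium library of 48 h was nearest to that of 72 h (0.36). In the CAF medium library of 12 h gene models over 5 kb had a median log2 deviation of -0.19 from their mean over the libraries, against 0.10 for models under 2 kb. That library held the lowest value of 10 of the 35 genes (28.6%, beside 21.7% of all tested genes).

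The means of the 35 genes ran from 3.73 to 1081 RPKM. HSP90AA1, the stress-inducible cytosolic Hsp90, had the highest mean over the 12 libraries (1081 RPKM), followed by HSP90B1 (GRP94, 1008), CALR (calreticulin, 759), HSPA8 (the constitutive Hsp70, 697), HSP90AB1 (the constitutive Hsp90, 662) and P4HB (protein disulfide isomerase, 380). The lowest were SYVN1, the ubiquitin ligase HRD1 of ER-associated degradation (5.32), and ERN1, which encodes IRE1 (3.73). The ranges over the libraries overlapped between all neighbours from HSP90AA1 to HSP90AB1, CALR included. In these bulk samples fewer cells expressing a gene and less RNA per cell cannot be told apart. Together the 35 genes took 1.58 to 2.33% of the reads assigned to genes in CAF medium and 1.77 to 2.64% in control medium. Reads of near-identical processed pseudogenes, which HSPA8, HSP90AA1, HSP90AB1, HSPD1 and HSPE1 are known to have, cannot be told apart in these values.

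**Figure D1:**
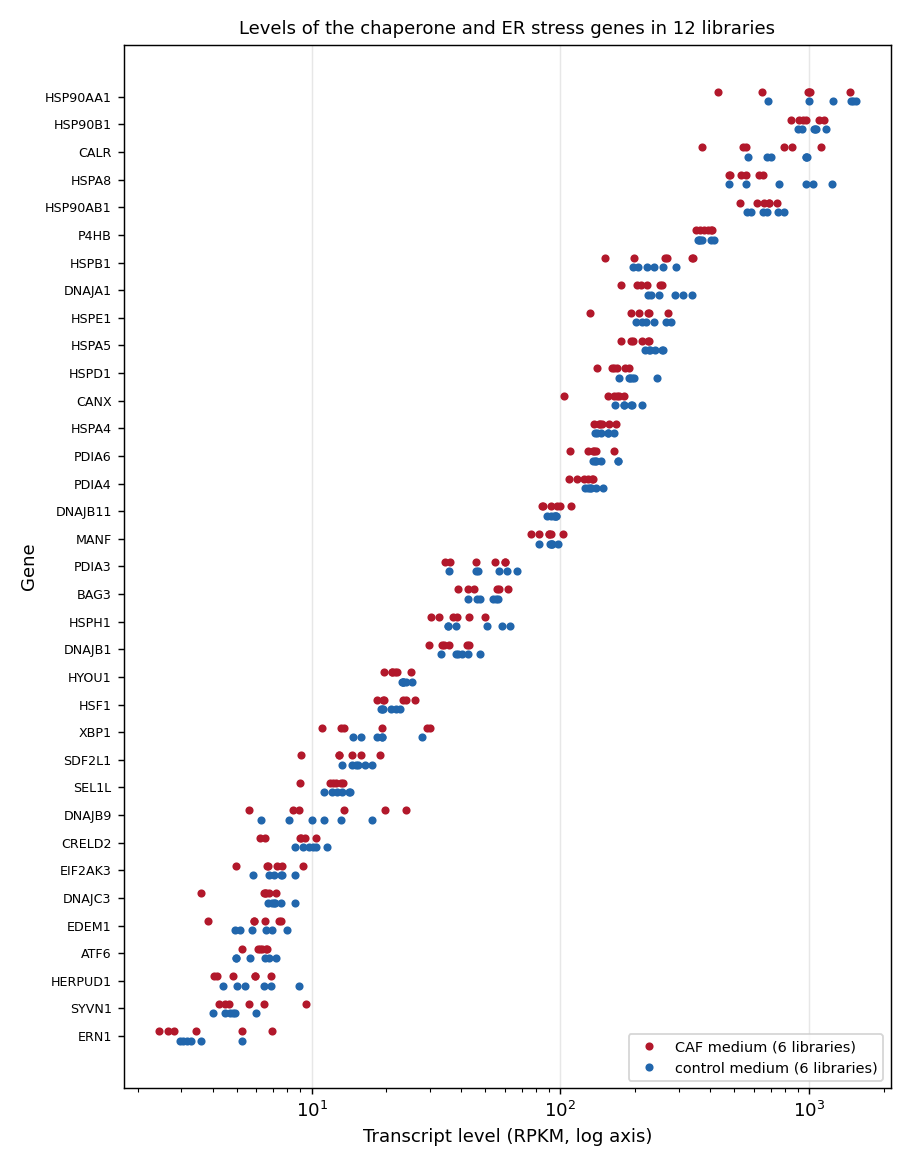
Transcript level (RPKM, log axis) of each of the 35 genes, ordered by mean, with 1 point per library in CAF medium (red, upper row) and control medium (blue, lower row). Levels run from 1538 RPKM for HSP90AA1 down to 2.44 RPKM for ERN1, and P4HB and HSPA4 have the narrowest spread, with a highest value 1.18 and 1.22 times the lowest.

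In CAF medium most of these genes were slightly lower than in control medium, but none passed the test over the 6 times. Each CAF medium library was compared with the control of its own time (limma on log2(RPKM + 0.5) with Benjamini-Hochberg adjustment over the 12029 genes averaging 1 RPKM or more, a filter that all 35 passed). Of the 35 genes 0 were called higher and 0 lower at an adjusted p under 0.05, where 6.06% of all tested genes were called higher and 4.13% lower. At an unadjusted p under 0.05 there were 8 of 35 (22.9%), beside 29.8% of all tested genes. The median log2 change was -0.11 in the 35 genes and 0.0024 in all tested genes, and 27 of the 35 had a negative change beside 5977 of all 12029. Lower at 6 of 6 times were CANX, PDIA6, HSP90AA1, DNAJB1 and HSPD1, which is 14.3% of the members beside 7.81% of all tested genes, and 0 members were higher at 6 of 6 times, beside 8.97% of all tested genes.

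At single times, with no test, 2 members passed 2-fold on the log2(RPKM + 0.5) scale, HSPA8 at 6 h and HSP90AA1 at 48 h, both lower. A further member, DNAJC3 at 12 h (3.60 RPKM in CAF medium against 7.53 in control medium, a ratio of 0.478), lay just short of it at log2 -0.97, and with log2(RPKM + 0.1) 3 members passed. Of all tested genes 1.20, 2.32, 2.96, 3.38, 2.24 and 0.150% were at least 2-fold higher at 3, 6, 12, 24, 48 and 72 h, and 0.981, 0.973, 1.33, 0.707, 3.17 and 0.757% at least 2-fold lower.

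The direction was the same at each time, counted over the genes. In CAF medium 13, 12, 10, 11, 11 and 13 of the 35 were higher than in control medium at 3, 6, 12, 24, 48 and 72 h, or 37.1, 34.3, 28.6, 31.4, 31.4 and 37.1%. Over all tested genes the share was 59.4, 54, 50.5, 54.9, 43.7 and 39.6%, so at 72 h the members stood close to all genes. The 12 genes outside the ER had the larger median changes at 6 h (log2 -0.22, against -0.05 in the 23 ER genes) and at 24 h (-0.33, against -0.07), and the ER genes had the larger one at 12 h (-0.24, against -0.07). The medians were closer at 3, 48 and 72 h, at -0.07, -0.15 and -0.07 outside the ER and -0.05, -0.10 and -0.02 in the ER genes. Over all tested genes they were 0.08, 0.04, 0.01, 0.04, -0.06 and -0.05 from 3 to 72 h. The CAF medium library of 12 h is the one with low values for long gene models.

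**Figure D2:**
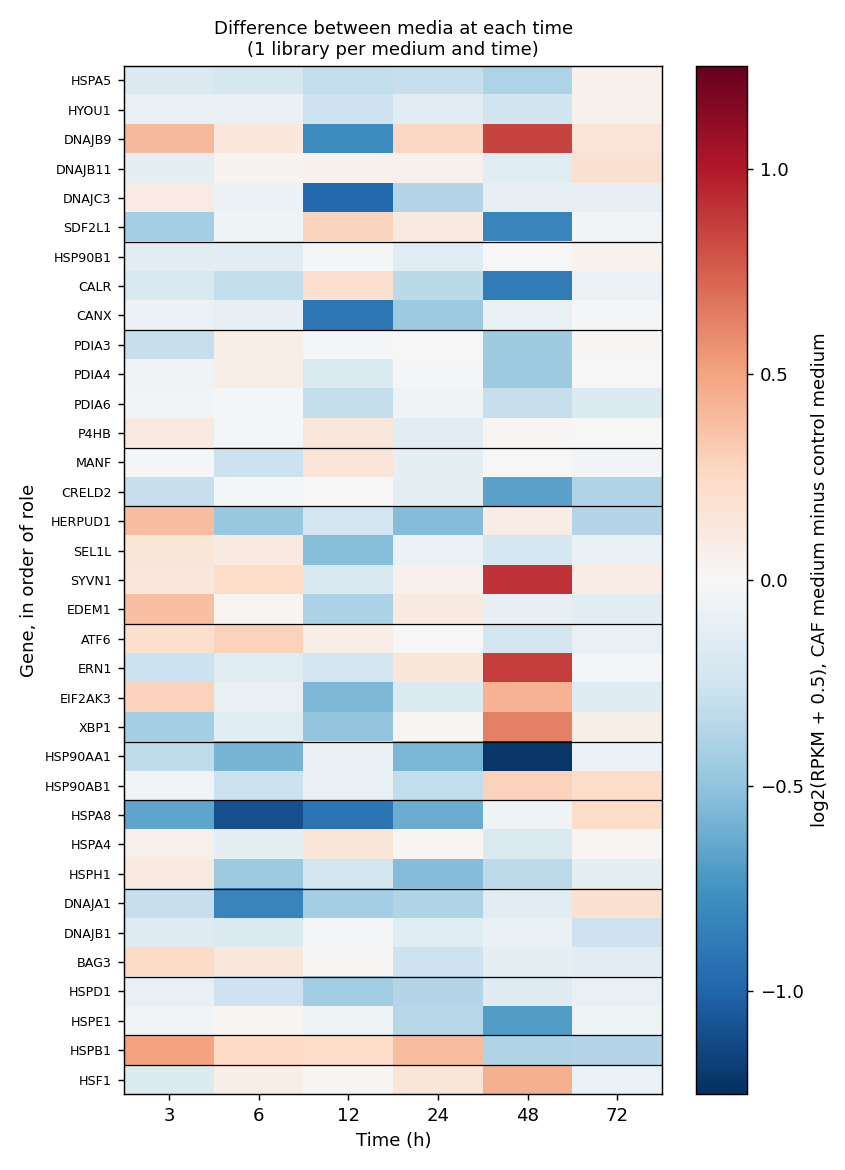
Difference of log2(RPKM + 0.5), CAF medium minus control medium, at each of the 6 times (columns) for the 35 genes (rows, grouped by role with lines between the groups), with 1 library per medium and time. Blue is lower and red higher in CAF medium, and the deepest cells are HSPA8 at 6 h (-1.10) and HSP90AA1 at 48 h (-1.22).

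The cytosolic Hsp70 gene HSPA8 (chromosome 11), whose product folds new proteins and uncoats clathrin vesicles, carried the clearest difference. It measured 478, 482, 655, 631, 533 and 558 RPKM in CAF medium at 3, 6, 12, 24, 48 and 72 h, against 755, 1032, 1236, 970, 555 and 475 RPKM in control medium. The CAF medium values stayed within a narrow band, while the control values were high from 3 to 24 h and reached the CAF medium level at 48 h. Over 3 to 12 h the groups did not overlap, and HSPA8 was lower by log2 -0.89 ± 0.17 (SE, 3 pairs, limma adjusted p = 0.0217), a fold of 0.54. It was the 1 of 35 genes called lower in that window, where 1.86% of all tested genes were called lower and 3.77% higher, and 0 of 35 were called higher. At an unadjusted p under 0.05 there were 3 of 35 (8.57%), beside 25.2% of all tested genes in limma. At 6 h the difference passed 2-fold (log2 -1.10), as it did for 0.973% of tested genes. With the 6 h pair left out HSPA8 was no longer called (limma adjusted p = 0.154, log2 -0.79), nor with the 12 h pair left out (0.125, log2 -0.88).

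Over 24 to 72 h HSPA8 was not called (log2 differences of -0.62, -0.06 and 0.23 at 24, 48 and 72 h). The difference between its late and early effects was log2 0.74 ± 0.24 (limma adjusted p = 0.261). Over the 6 times it was at log2 -0.52 ± 0.16 (limma adjusted p = 0.0633), lower at 5 of 6 times, and it passed without the 72 h pair (adjusted p = 0.0224).

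Its J-protein partner DNAJA1 (chromosome 9), which delivers clients to Hsp70, had the same shape. It measured 203, 176, 252, 224, 210 and 257 RPKM in CAF medium and 248, 311, 339, 289, 231 and 226 RPKM in control medium, in the order of the times. The early change was log2 -0.51 ± 0.15 (limma adjusted p = 0.071), which is not past the threshold, and the CAF medium value of 12 h lay above the control value of 3 h. HSPH1, an Hsp110 that exchanges the nucleotide of Hsp70, had 38.3, 36.9, 49.7, 42.8, 30.3 and 32.7 RPKM in CAF medium and 35.5, 50.8, 58.3, 62.5, 38.1 and 35.5 RPKM in control medium. It was lower at 5 of 6 times (log2 -0.26 ± 0.10, limma adjusted p = 0.116). HSPA4, another Hsp110, was steady, with 137 to 167 RPKM (median 146) in CAF medium and 138 to 165 (median 150) in control medium. The ratio of HSPA8 to HSPA4 transcripts was therefore 3.32, 3.37, 4.18, 3.77, 3.90 and 3.79 in CAF medium at the successive times, against 5.47, 6.61, 8.79, 5.90, 3.58 and 3.26 in control medium. This ratio within each library was lower in CAF medium up to 24 h and higher at 48 and 72 h.

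**Figure D3:**
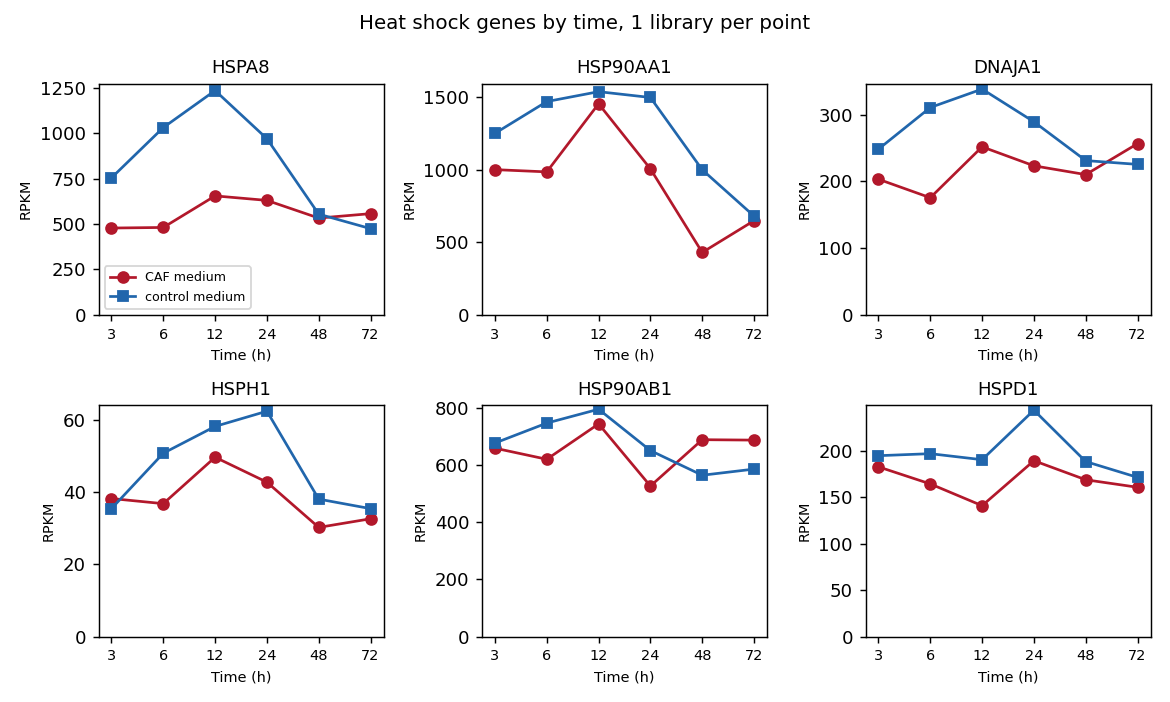
RPKM (y axis from 0) against time in h (equally spaced) for 6 heat shock genes in CAF medium (red circles) and control medium (blue squares), 1 library per point. HSPA8 and DNAJA1 reach 655 and 252 RPKM at 12 h in CAF medium, below the control maximum at that time (1236 and 339 RPKM), and HSP90AA1 has its lowest point in CAF medium at 48 h (430 RPKM).

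Of the cytosolic Hsp90 pair, HSP90AA1 (chromosome 14) measured 1001, 986, 1455, 1006, 430 and 649 RPKM in CAF medium at the successive times, against 1251, 1470, 1538, 1498, 1000 and 681 RPKM in control medium. It was lower at 6 of 6 times, and at 48 h it passed 2-fold (log2 -1.22), as did 3.17% of tested genes downward. Over the 6 times the change was log2 -0.47 ± 0.14 (limma adjusted p = 0.059), which passed without the 72 h pair (0.0463), and over 24 to 72 h -0.62 ± 0.20 (limma adjusted p = 0.105). Without the 48 h pair the late value was -0.32 (adjusted p = 0.638), and without the 72 h pair -0.89 (adjusted p = 0.0422). HSP90AB1 had a range of 526 to 743 RPKM (median 673) in CAF medium and 564 to 795 RPKM (median 663) in control medium, and it was higher in CAF medium at 48 and 72 h (log2 differences of 0.29 and 0.23).

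The ratio of HSP90AA1 to HSP90AB1 showed the shift between the paralogs within each library. In CAF medium it was 1.52, 1.59, 1.96, 1.91, 0.63 and 0.95 from 3 to 72 h, and in control medium 1.85, 1.97, 1.94, 2.30, 1.77 and 1.16. HSP90AA1 was thus the lower of the pair in the CAF medium libraries of 48 and 72 h and the higher in all 6 control libraries.

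DNAJB1 (Hsp40) was lower at 6 of 6 times, with 29.6 to 42.8 RPKM (median 35.0) in CAF medium and 33.1 to 47.5 RPKM (median 39.5) in control medium. BAG3, which directs Hsp70 clients to autophagy, had 56.4, 61.8, 55.9, 44.8, 42.4 and 38.8 RPKM in CAF medium and 47.7, 56.0, 55.3, 53.7, 46.3 and 42.7 RPKM in control medium, so the media crossed between 12 and 24 h. HSPB1, the small heat shock protein Hsp27, crossed later, with 338, 263, 342, 269, 199 and 151 RPKM in CAF medium and 238, 222, 293, 205, 257 and 195 RPKM in control medium. HSF1 (chromosome 8), the factor itself, measured 18.3 to 25.9 RPKM (median 21.4) in CAF medium and 18.9 to 22.6 RPKM (median 20.1) in control medium. None of DNAJB1, BAG3, HSPB1 and HSF1 was called between the media in any window.

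The mitochondrial chaperonin is built from HSPD1 (Hsp60) and its lid HSPE1 (Hsp10). HSPD1 measured 183, 164, 141, 189, 169 and 161 RPKM in CAF medium and 195, 197, 190, 244, 188 and 171 RPKM in control medium, lower at 6 of 6 times (log2 -0.23 ± 0.09, limma adjusted p = 0.104). HSPE1 measured 271, 224, 228, 207, 132 and 192 RPKM in CAF medium and 277, 221, 238, 266, 213 and 201 RPKM in control medium. The partners parted in the CAF medium library of 48 h, where their ratio was 1.28, against 0.88 in the control library and 0.62 to 0.91 in the other CAF medium libraries.

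Among the ER chaperones, HSPA5 (BiP, chromosome 9), the master Hsp70 of the ER lumen, was lower in CAF medium at 5 of 6 times. It measured 226, 196, 193, 213, 175 and 226 RPKM in CAF medium and 256, 227, 240, 259, 229 and 218 RPKM in control medium (log2 -0.22 ± 0.09, limma adjusted p = 0.125). The difference was small at every time, at most log2 -0.39 at 48 h. DNAJB11, a BiP co-chaperone, had 84.1 to 110 RPKM (median 94.3) in CAF medium and 88.4 to 96.3 (median 94.8) in control medium, and its BiP partners HYOU1, SDF2L1 and DNAJC3 had 19.5 to 25.02, 9.03 to 18.9 and 3.60 to 7.19 RPKM in CAF medium and 23.2 to 25.4, 13.3 to 17.5 and 6.66 to 8.57 RPKM in control medium.

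HSP90B1 kept its level, with 845 to 1152 RPKM (median 959) in CAF medium and 905 to 1169 RPKM (median 1049) in control medium. CALR (chromosome 19) measured 853, 794, 1114, 558, 370 and 544 RPKM in CAF medium and 972, 979, 970, 705, 677 and 570 RPKM in control medium. Its lowest value was again that of CAF medium at 48 h, and over 24 to 72 h it was at log2 -0.43 ± 0.17 (limma adjusted p = 0.177). CANX, the membrane-bound lectin of the pair, had 103 RPKM in CAF medium at 12 h, against 192 in control medium, and 156 to 180 RPKM in the other CAF medium libraries against 166 to 213 in the other controls. CANX has a gene model of 5127 bases, and the 12 h CAF medium library was low for long models as a class. Its part in the CANX, DNAJC3 (8567 bases) and SEL1L (8576 bases) values of that library was not tested gene by gene.

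Of the disulfide isomerases, P4HB had 352 to 408 RPKM (median 385) in CAF medium and 358 to 415 RPKM (median 366) in control medium. PDIA6 was lower at 6 of 6 times, with 109 to 165 RPKM (median 136) in CAF medium and 135 to 170 RPKM (median 142) in control medium. PDIA4 had 108 to 135 RPKM in CAF medium and 125 to 148 in control medium. The secreted ER stress proteins MANF and CRELD2 had 76.2 to 102 RPKM (median 90.2) and 6.21 to 10.4 RPKM (median 9.03) in CAF medium, against 81.9 to 97.6 (median 92.1) and 8.60 to 11.6 (median 9.94) in control medium. CRELD2 was at log2 -0.38 ± 0.14 over 24 to 72 h (limma adjusted p = 0.146).

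Over 24 to 72 h 0 of the 35 genes were called in either direction (limma, 5 or 14.3% at an unadjusted p under 0.05, beside 21.3% of all genes), where 1.36% of tested genes were called higher and 2.74% lower. For the difference between the late and early effects it was 0 of 35 as well (limma, 3 or 8.57% at an unadjusted p under 0.05, namely HSPA8, XBP1 and ERN1, beside 11.5% of all genes), where 0.0582% of tested genes were called higher and 0.357% lower.

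The CAF medium library of 48 h held the highest value of 17.1% of the members (19.1% of all tested genes) and the lowest of 31.4% (17.8% of all). DNAJB9, SYVN1, ERN1, EIF2AK3, XBP1 and HSF1 had their highest value of all 12 libraries there, and HSPA5, HYOU1, SDF2L1, CALR, PDIA3, PDIA4, CRELD2, HSP90AA1, HSPA4, HSPH1 and HSPE1 their lowest. SYVN1 measured 9.49 RPKM in that library, against 4.84 in the 48 h control and 4.25 to 6.41 in the other CAF medium libraries. ERN1 measured 6.92 RPKM, against 3.58 in its control, and DNAJB9 23.9 against 13.1. DDIT3, the transcription factor CHOP of the PERK branch and not a member, was likewise highest there, at 35.2 RPKM against 13.3 in the control. It is 1 of 14 tested ER stress transcription factors and PERK branch genes. Of these 14, 10 were higher and 4 lower in CAF medium at 48 h, where 43.7% of all tested genes were higher. At least 2-fold higher were 4 of the 14, beside 2.24% of all tested genes. At 48 h this held for 0 of the 35 members and for 0 genes in each of the other wider lists described below. Among the 14 it was 1 gene at 6 h, where 1 was at least 2-fold lower, and 0 at 3, 12, 24 and 72 h. TRIB3 of that list was lower, at 3.66 against 4.95 RPKM. The CAF medium library of 48 h is 1 library with no replicate. Its values for XBP1, ERN1 and DNAJB9 were nearer to both media at 72 h than to the 48 h control.

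Change with time was tested across both media. In the fit of a slope on log2 hours, with medium as a term and all 12 libraries, 3 of 35 genes rose and 5 fell, where 21% of all tested genes rose and 13.3% fell (limma, Benjamini-Hochberg over 12029 genes). In either direction 22.9% of the members were called, below the 34.4% of all genes, so the count sets the members apart in neither direction. Under median centring 47.6% and under quantile normalization 48.8% of the called genes rose, against 61.2% without further scaling. The fit counts both libraries of a time as separate, so its p-values can be too small, and depth moved with time, at 24.0 to 29.4 M reads for 3 to 12 h and 33.9 to 40.6 M for 24 to 72 h, a part in these changes that was not tested.

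The genes that rose were DNAJB9, XBP1 and ERN1. DNAJB9 (ERdj4, a J-protein that binds IRE1 and BiP, and a known target of spliced XBP1) measured 8.44, 8.92, 5.61, 13.5, 23.9 and 19.7 RPKM in CAF medium and 6.27, 8.11, 10.0, 11.2, 13.1 and 17.5 RPKM in control medium. It rose in both media, with a slope of log2 0.31 ± 0.06 per doubling of time (limma adjusted p = 0.00124). XBP1 (chromosome 22) measured 13.5, 13.2, 11.1, 19.3, 29.8 and 29.1 RPKM in CAF medium and 18.3, 14.6, 15.8, 19.1, 19.1 and 27.8 RPKM in control medium (slope 0.21 ± 0.05, limma adjusted p = 0.0063). RPKM of the whole gene do not separate its spliced from its unspliced form.

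ERN1 (IRE1, the kinase and endonuclease that splices XBP1 mRNA) measured 2.64, 2.80, 2.44, 3.43, 6.92 and 5.23 RPKM in CAF medium and 3.29, 3.17, 2.97, 3.04, 3.58 and 5.27 RPKM in control medium (slope 0.18 ± 0.05, limma adjusted p = 0.0143). Both XBP1 and ERN1 were highest at 48 h in CAF medium and at 72 h in control medium. Neither was called when the 72 h pair was left out (limma adjusted p = 0.101 for XBP1 and 0.143 for ERN1), whereas DNAJB9 kept its call without any single pair (largest adjusted p = 0.0237). SYVN1, which ends the life of misfolded ER proteins, had a slope of 0.11 ± 0.04 that missed the threshold (limma adjusted p = 0.0594) and passed without the 24 h pair (0.0452).

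**Figure D4:**
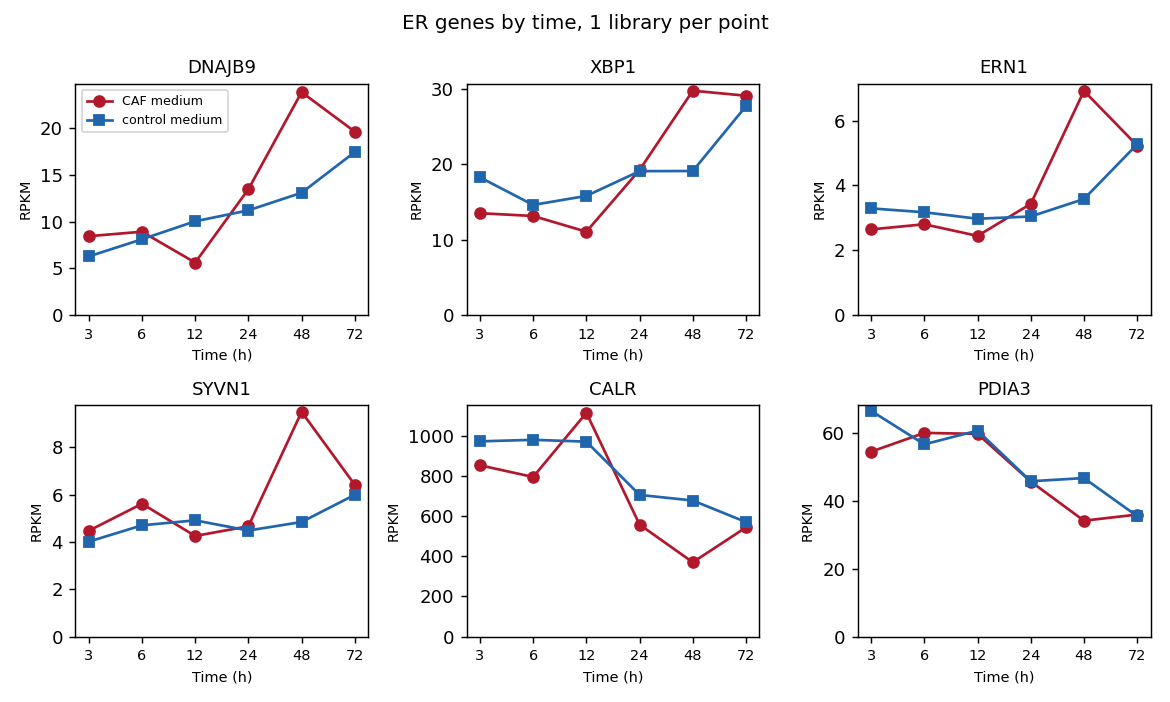
RPKM (y axis from 0) against time in h (equally spaced) for 6 ER genes in CAF medium (red circles) and control medium (blue squares), 1 library per point. DNAJB9, XBP1 and ERN1 are higher at 72 h than at 3 h in both media, and CALR and PDIA3 are lower. The CAF medium value of 48 h is the highest of all libraries for DNAJB9, XBP1, ERN1 and SYVN1 and the lowest for CALR and PDIA3.

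The other sensors and the degradation genes were called neither between the media nor with time, although HERPUD1 and EDEM1 varied 2.18-fold and 2.08-fold over the 12 libraries. EIF2AK3 (PERK, which slows translation) had 4.98 to 9.27 RPKM (median 6.95) in CAF medium and 5.81 to 8.55 RPKM (median 7.33) in control medium. ATF6, the membrane-held factor, had 5.27 to 6.61 RPKM in CAF medium and 4.96 to 7.22 in control medium. SEL1L, the partner of SYVN1, had 8.97 to 13.4 RPKM (median 12.4) in CAF medium and 11.2 to 14.3 RPKM (median 12.9) in control medium. EDEM1, which marks glycoproteins for removal, had 3.82 to 7.51 RPKM (median 6.21) in CAF medium and 4.92 to 7.94 RPKM (median 6.15) in control medium, and HERPUD1, a scaffold of the ligase complex, 4.07 to 6.88 RPKM in CAF medium and 4.39 to 8.87 in control medium.

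The genes that fell with time were CALR, PDIA3, HSP90AA1, HSPE1 and BAG3. CALR had a slope of log2 -0.21 ± 0.05 per doubling of time (limma adjusted p = 0.00591), and PDIA3 (ERp57, the isomerase that works with calreticulin) of -0.17 ± 0.03 (limma adjusted p = 0.00162). PDIA3 measured 54.6, 60.2, 59.9, 45.8, 34.2 and 36.1 RPKM in CAF medium and 66.7, 56.8, 60.8, 45.9, 46.8 and 35.6 RPKM in control medium. In both media the values of 24 to 72 h lay below all those of 3 to 12 h. CALR and PDIA3 kept their calls without any single pair (largest adjusted p = 0.0405 and 0.0362).

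HSP90AA1 (slope -0.20 ± 0.07, limma adjusted p = 0.0302), HSPE1 (-0.11 ± 0.04, 0.0313) and BAG3 (-0.09 ± 0.03, 0.032) passed with less margin. HSP90AA1 was not called with the 6, 48 or 72 h pair left out (adjusted p = 0.0759, 0.107 and 0.22), HSPE1 with the 3, 48 or 72 h pair left out (0.193, 0.0978 and 0.0816) and BAG3 with the 6, 48 or 72 h pair left out (0.126, 0.092 and 0.25). Without the 3 h pair the slopes of HSP90AA1 and BAG3 were steeper, -0.31 and -0.15. HSPB1 (-0.13 ± 0.05, limma adjusted p = 0.0508) and CRELD2 (-0.09 ± 0.03, 0.052) stood just outside the threshold.

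**Figure D5:**
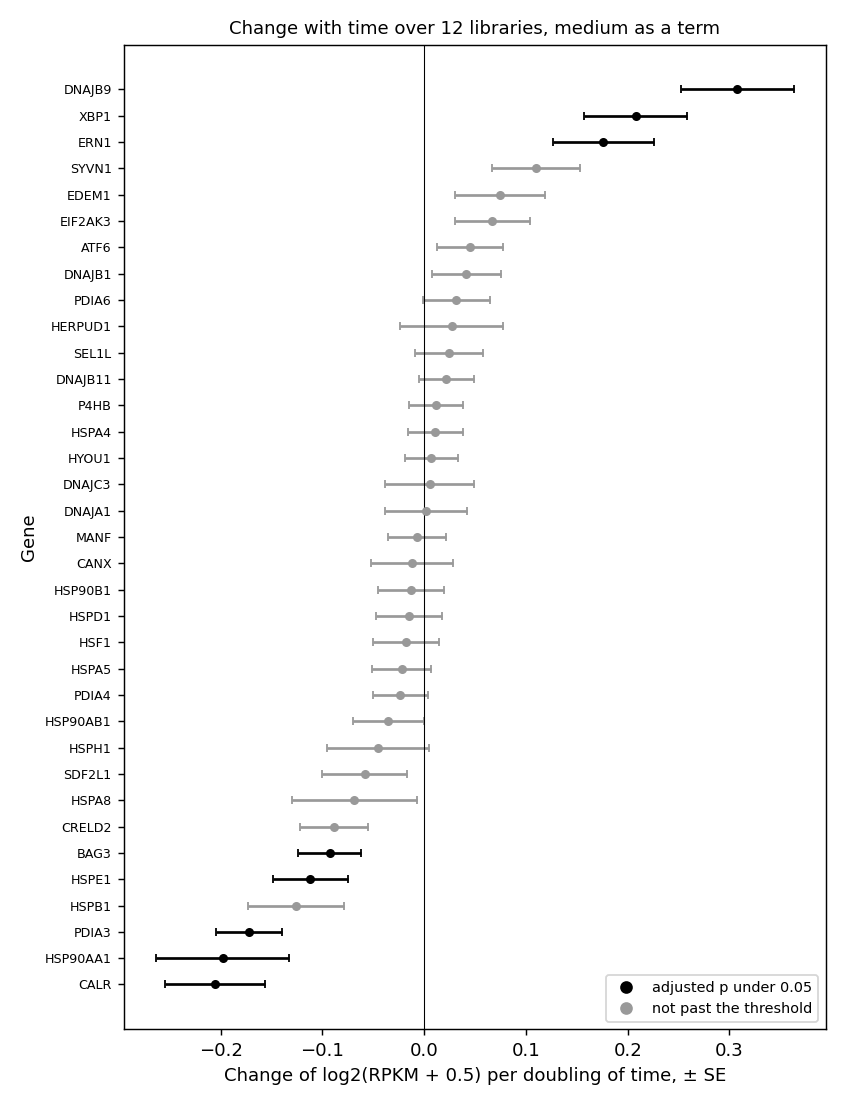
Slope of log2(RPKM + 0.5) per doubling of time, with its SE, for the 35 genes over the 12 libraries with medium as a term. Black points passed the test over all genes (adjusted p under 0.05) and grey points did not. DNAJB9 has the largest rise (0.31) and CALR the largest fall (-0.21).

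Wider lists of the same machinery were counted for comparison. Over the 6 times 0 of 26 tested genes for ER folding and secretion were called (limma, 2 at an unadjusted p under 0.05, median log2 -0.06), 0 of 18 for ER-associated degradation (7 unadjusted, median -0.03), 0 of 30 co-chaperones and further heat shock genes (5 unadjusted, median -0.04), 0 of 13 for the cytosolic chaperonin TRiC and prefoldin (6 unadjusted, median -0.08) and 0 of 10 for further mitochondrial chaperones and proteases (1 unadjusted, median -0.02). The unadjusted shares were 7.69, 38.9, 16.7, 46.2 and 10.0% in that order, beside 29.8% of all tested genes. Of 14 ER stress transcription factors and PERK branch genes, CEBPB was called higher (82.8 ± 24.2 RPKM in CAF medium and 60.5 ± 26.2 in control medium, SD over 6 times, log2 0.50 ± 0.12, limma adjusted p = 0.0315) and 0 lower. Over 3 to 12 h CEBPB (log2 0.65 ± 0.16) and SELK (0.51 ± 0.13), a selenoprotein of ER-associated degradation, were higher (limma adjusted p = 0.0451 each). SELK measured 10.1, 13.5 and 11.4 RPKM in CAF medium against 6.12, 9.26 and 8.90 RPKM in control medium. These calls of CEBPB and SELK depended on the processing. With no filter on low values, or without the 12 and 48 h pairs, 0 genes at all were called over the 6 times or over 3 to 12 h. Over 24 to 72 h and for the difference between the windows 0 genes of these lists were called (limma, 20 and 12 at an unadjusted p under 0.05). HSPA6, an Hsp70 that is near silent without heat shock, reached at most 0.06 RPKM in any library.

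With time, 4 of the 26 ER folding and secretion genes rose and 0 fell, among them ERO1LB, an oxidase that recharges the disulfide isomerases (slope 0.24 ± 0.06, limma adjusted p = 0.00541), SEC24D, SERP1 and PDIA5 (0.20, 0.15 and 0.12). In the degradation list 5 of 18 rose (among them ERLEC1, EDEM2, EDEM3 and OS9, at 0.15, 0.13, 0.22 and 0.11) and 3 fell (AUP1, DERL2 and UFD1L, at -0.13, -0.12 and -0.09). CEBPB was the 1 of 14 stress factor and PERK genes that rose (0.26 ± 0.04, limma adjusted p = 0.000663), with 0 falling. Of the 30 co-chaperones 3 rose (HSPA2, DNAJA2 and HSPA13) and 2 fell (HSPB11 and CACYBP). Of the 13 chaperonin genes VBP1 fell, and of the 10 mitochondrial genes TRAP1 rose. In either direction the called shares were 15.4, 44.4, 7.14, 16.7, 7.69 and 10.0% in that order, beside 34.4% of all tested genes. All lists but the degradation list thus lay below all genes.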

How the data were processed

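Polyadenylated RNA of 12 A549 libraries, 1 per medium and time, was read by group from the sample titles, and columns were matched through the column code in each sample description. The RPKM values were deposited by the authors, who used TopHat2, edgeR and genome build hg19 per the submitters' processing notes, with no versions named. The libraries were directional per the labels' protocols. How reads were counted, with which strand setting and annotation, and how the 2 biological replicates were joined is not given in the sources used here. Small RNA libraries were not used here, and 0 value columns lacked a sample.

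Here log2(RPKM + 0.5), which understates the change of low genes, was fitted in R 4.3.3 with limma 3.58.1 (eBayes with trend) for genes averaging 1 RPKM or more. The medium effect over the 6 times had time as a block, since both media were collected at each time (5 residual degrees of freedom). Early and late effects and their difference shared 1 fit (4), and the slope on log2 hours had medium as a term (9). Tests were two-sided, adjusted by Benjamini-Hochberg over 12029 genes at 0.05. The fits were tested on simulated data with independent noise of the same spread for all genes. Differences between whole libraries and by gene length were not simulated, so this checks the fitting and not the p-values of these data. Read numbers came from 50 to 97 low values per library in gene models under 400 bases, 100% of them whole within 0.1 read.

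The 35 genes, the lists and the tests were chosen with earlier results of these data known. Values are printed for genes past a test, past 2-fold at a time, or among the 2 most abundant of their role, and other genes were named for role or example after their values were seen. Of the other lists at most 4 genes per list and direction are named. RNF5, HSPA1L, BAG6 and PFDN6 of those lists were not found under these symbols in the mRNA table. Other listed genes, such as HSPA6, averaged under 1 RPKM and were not tested.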

Additional observations from a re-analysis of the deposited data

Results flagged for a closer look

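In 6 of 70 sets of 6 libraries (35 genes in 2 media) the highest or lowest library lay apart from the other 5 by more than 0.625 of the whole range, and chance alone gives about 1 in 20. Since the libraries of a medium differ in time, such a gap can also be a change with time. The gap was not counted over all tested genes, so the 6 of 70 cannot be read as a trait of these 35. In CAF medium at 12 h DNAJC3 was lowest at 3.6 RPKM (next 6.45), CANX at 103.0 RPKM (next 155.69 RPKM) and SEL1L at 8.97 RPKM (next 11.86). These are 3 genes with models over 5 kb in a library whose long models had a median log2 deviation of -0.19. In the same library ATF6 (10189 bases) had 5.27 RPKM against 4.96 in the 12 h control. DNAJB9 (2538 bases) had 5.61 against 10.0 RPKM. The part of gene length in these values was not tested. In control medium at 72 h ERN1 was highest at 5.27 RPKM (next 3.58) and XBP1 at 27.76 RPKM (next 19.13), near the CAF medium values of 72 h (5.23 and 29.14 RPKM). HSPD1 was highest in control medium at 24 h, at 243.71 RPKM (next 196.89).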

How the results depend on the processing

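The 30 changes of single genes with an unadjusted p under 0.05 were recomputed under up to 17 alternatives, 2 of them chosen after seeing the data (without the 12 and 48 h pairs, and with the gene length trend removed per library). None changed direction, 25 values lost their call, 11 gained one, and 442 stayed on their side of the threshold. Having been chosen by that p, these changes had little room to change direction. Called at the outset were only HSPA8 over 3 to 12 h and, for change with time, 3 rising and 5 falling genes. The 25 losses could come only from those, and most of the 442 were uncalled values that stayed uncalled. The count of members called over 3 to 12 h was 0 with no filter on low values, 0 with no time term in place of the time pairing (no replicate block; HSPA8 adjusted p = 0.148 and 0.108), and 0 without the 12 and 48 h pairs. Leaving out 1 pair gave 0 to 2 members over the 6 times, 0 to 1 over 3 to 12 h, 0 to 1 over 24 to 72 h, 0 to 0 for their difference and 3 to 9 for change with time. Quantile normalization took the calls of HSP90AA1, HSPE1 and BAG3 for change with time (adjusted p = 0.101, 0.157 and 0.0526).

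Counts over all genes were less stable. Called over 6 times, over 3 to 12 h, over 24 to 72 h and for the difference, they were 1226, 677, 492 and 50. With no filter they were 0, 0, 36 and 0, with no time term (pairing dropped) 0, 13, 0 and 0, and without the 12 and 48 h pairs 0, 0, 0 and 0. A mean of at least 5 RPKM gave 601 over 6 times, 365 over 3 to 12 h and 2558 for change with time (4135 otherwise), and eBayes without trend gave 0 for the difference. Leaving out 1 pair gave 34 to 1399 (35 without 12 h, 117 without 24 h, 729 without 48 h), 0 to 1084, 31 to 542 (277 without 24 h), 0 to 242 and 1572 to 4296 for change with time (2668 without 6 h, 2649 without 48 h). The cause was not tested. The members had at least 268 reads per library.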

Other observations

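The summed level of the 12 cytosolic, mitochondrial and nuclear members was 3421, 3214, 4141, 3373, 2632 and 2925 RPKM in CAF medium at 3, 6, 12, 24, 48 and 72 h, against 3917, 4523, 4945, 4472, 3306 and 2818 RPKM in control medium. It was lower in CAF medium at 5 of 6 times. HSP90AA1, HSPA8 and HSP90AB1, described above, made up most of these sums, so they are not separate evidence on the 12 genes. At 6 h HSPA8 alone had 482 RPKM in CAF medium against 1032, and HSP90AA1 986 against 1470. The 23 ER members summed to 2630 to 3562 RPKM in CAF medium and 3017 to 3584 RPKM in control medium, a narrower span.

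The ratio of CALR to CANX, the soluble and the membrane-bound lectin chaperone, was 10.8 in the CAF medium library of 12 h, against 5.04 in the control library of that time and 2.19 to 4.96 in the other CAF medium libraries. CALR has a gene model of 1911 bases and CANX of 5127, and the part of gene length in this ratio was not tested.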
